A study of Homo sapiens with 32 samples.

Results

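Stretches of the human genome that were called enriched in uracil in every non-treated HCT116 condition, but not called in K562, are described here. U-DNA-Seq maps uracil with a ΔUNG sensor, a uracil-DNA glycosylase that binds uracil in DNA but no longer cuts it out. DNA pulled down with the sensor was compared with input DNA, and stretches with a smoothed log2 ratio above a cut-off were deposited as regions. Bases found in the merged region files of all 3 non-treated HCT116 conditions and in no region of K562 were joined into intervals on chromosomes 1 to 22, and those of at least 1000 bp were kept. This gave 15271 HCT116-only regions with a total of 30.5 Mb, against 300523 intervals and 1945 Mb in the union of all 22 region files. The regions were thus chosen by their presence in the non-treated HCT116 files and their absence from the K562 file, and values of these regions in those files are given as a description, with no test.

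HCT116 is a colorectal carcinoma line that lacks DNA mismatch repair (MMR). K562 is a chronic myeloid leukaemia line, and its wild type was mapped in 1 library. The HCT116 conditions had 2 libraries each. They were the wild type (WT), cells that stably express UGI, a phage protein that blocks the cell's own UNG (NT_UGI), and UGI-expressing cells of a sub-line made MMR proficient by an added chromosome 3 (NT_UGI_MMR). UGI cells of both MMR states were also treated for 48 h with 20 µM 5FdUR (5-fluoro-2'-deoxyuridine; 5FdUR_UGI and 5FdUR_UGI_MMR) or 100 nM raltitrexed (RTX_UGI and RTX_UGI_MMR). UGI was brought in by retroviral transduction, and transduced cells were sorted on a linked green fluorescent protein.

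Uracil enters DNA when cytosine is deaminated and when the polymerase uses dUTP in place of dTTP. UNG starts its removal by base excision repair. Both drugs block thymidylate synthase, the enzyme that makes dTMP from dUMP, and so raise the supply of dUTP for the polymerase. The 8 drug-treated libraries took no part in the choice of the regions. The tests below use them, apart from 1 that scores each non-treated library on bases chosen by the other conditions and split by the K562 calls.

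The sequences at the middle of 3 of the longest HCT116-only regions are printed to show how rich in A and T they were. Capitals mark runs of at least 8 bases made only of A and T. All coordinates are GRCh38, and all sequences are of the plus strand of the reference genome. The longest region, chr9:25091301-25091500 at its middle, was intergenic, had 28.5% GC and held 4 such runs with 46 of its 200 bases:

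chr9 region of 20600 bp: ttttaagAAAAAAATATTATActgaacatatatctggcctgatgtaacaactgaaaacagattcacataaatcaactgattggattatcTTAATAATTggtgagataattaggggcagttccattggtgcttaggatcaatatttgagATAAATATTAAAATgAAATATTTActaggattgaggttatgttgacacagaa

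The next longest, with its middle at chr9:25142751-25142950, was also intergenic, had 30.5% GC and held 2 runs with 25 bases:

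chr9 region of 17900 bp: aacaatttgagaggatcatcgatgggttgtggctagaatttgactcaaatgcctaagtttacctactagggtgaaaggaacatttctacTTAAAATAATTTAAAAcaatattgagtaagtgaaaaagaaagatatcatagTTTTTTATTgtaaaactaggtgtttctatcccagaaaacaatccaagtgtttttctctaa

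The next in length, tied at 14300 bp, were an intergenic region, chr9:30649401-30663700, and one inside FSTL5, a gene for a secreted follistatin-like protein. The middle of the latter, chr4:161502451-161502650, was intronic, had 28.0% GC and held 5 runs with 55 bases:

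chr4 region of 14300 bp: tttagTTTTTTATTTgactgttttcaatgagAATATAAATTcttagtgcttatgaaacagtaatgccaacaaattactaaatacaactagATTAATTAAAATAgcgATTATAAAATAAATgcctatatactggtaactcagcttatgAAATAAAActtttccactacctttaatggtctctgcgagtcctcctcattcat

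The longest interval shared with K562 was intergenic with its middle at chr5:99212651-99212850. Its middle is not typical of such intervals. Those of at least 1000 bp had a median GC of 32.1% and a 95th percentile of 37.4%. It had 42% GC in this stretch and 1 run of 10 bases:

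chr5 shared interval of 43700 bp: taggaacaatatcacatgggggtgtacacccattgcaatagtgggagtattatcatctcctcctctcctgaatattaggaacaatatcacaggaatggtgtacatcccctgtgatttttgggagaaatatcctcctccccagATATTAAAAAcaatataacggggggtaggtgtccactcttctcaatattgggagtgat

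Over all HCT116-only bases, 15.5% lay in such runs. The share was 16.6% in the intervals of at least 1000 bp shared by the 3 HCT116 conditions and K562 (the shared core, 34744 intervals and 113.2 Mb). It was 12% in intervals of at least 1000 bp found in K562 and in none of the 3 HCT116 files (K562-only, 22977 intervals and 43.8 Mb), and 8.80% in all known bases of the chromosomes. HCT116-only regions were thus placed between the shared core and the K562-only regions in this measure, and closer to the core.

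The regions were short. Their median length was 1600 bp, 10% were over 3400 bp, and 473 (3.10%) reached 5 kb, whereas the shared core had a median of 2500 bp and 18.8% of its intervals reached 5 kb. At the limit of the rule, 1678 regions had exactly 1000 bp and 1853 intervals of 900 bp were left out. The 6 non-treated libraries covered 66.4% to 82.1% of the bases of the former and 67.0% to 80.8% of the latter, with a GC content of 33.4% in both. Most regions were parts of a wider HCT116 interval that K562 shared in part. Of the 15271, 9250 (60.6%) directly adjoined a K562 region and 1918 had one at each end, while 6106 (40.0%) came from an HCT116 interval with no K562 base. Only 2488 (16.3%) lay 5 kb or more from the nearest K562 region.

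The enrichment values were also modest. In the merged WT file, the median log2 value over HCT116-only bases was 0.39, against 0.41 over the shared core, and the lowest value in that file was 0.27. In the merged NT_UGI file the medians were 0.46 and 0.49, and in the merged NT_UGI_MMR file 0.41 and 0.44. Of the HCT116-only bases, 7.23% to 9.01% lay within 0.05 of the lowest log2 value in the file, against 3.21% to 5.01% of the core. K562-only bases showed the like in K562, with a median of 0.43 against 0.51 over the core. Of the K562-only bases, 13.7% lay within 0.05 of the lowest K562 value, against 2.95% of the core. K562-only regions rest on calls in 1 library, whereas HCT116-only regions needed calls in 3 merged files. The lowest value in the K562 file was 0.33. This was level with the merged NT_UGI file (0.33) and above the merged WT (0.27) and NT_UGI_MMR (0.29) files. K562 values under its cut-off are not known here, so absence from K562 means only that no region was called.

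All 6 single libraries called these regions, but not all of them equally. WT covered 83.6% and 82.1% of the bases in its 2 libraries, NT_UGI 87.6% and 72.5%, and NT_UGI_MMR 85.8% and 81.6%. Replicate 2 of NT_UGI was the lowest of the 6, also over the shared core (80.1%, against 87.3% to 92.5% in the others). At least 50% of the region was covered in all 6 libraries for 5002 regions (32.8%), in 5 for 6094 and in 4 for 3388. The corresponding share in all 6 libraries was 50.03% for the shared core.

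**Figure D1:**
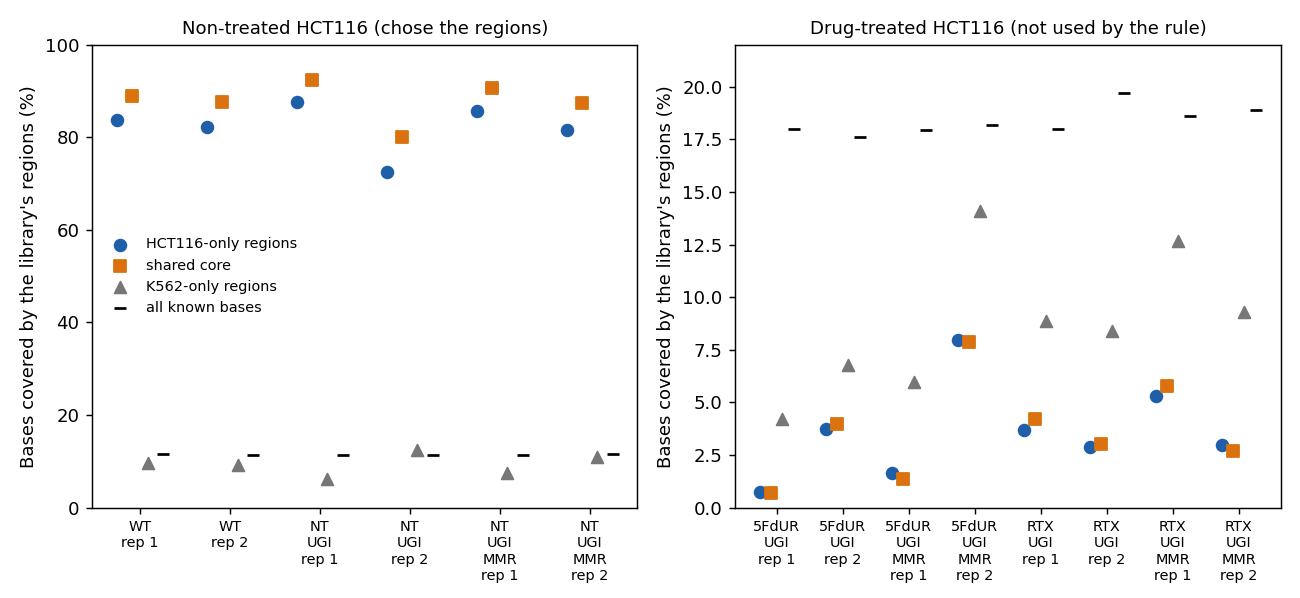
Share of bases (%, vertical axis) that each library's own regions cover in the HCT116-only regions, the shared core, the K562-only regions and all known bases of chromosomes 1 to 22. Each point is 1 library. The non-treated libraries cover 72.5% to 87.6% of the HCT116-only bases, and the drug-treated libraries 0.764% to 7.96%, below their 17.6% to 19.7% of all known bases.

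To set the absence from K562 beside the spread among HCT116 libraries, each non-treated condition was left out in turn, and its libraries and K562 were scored on the bases common to the other 2 conditions. K562 lacked 30.8% to 31.1% of these bases. WT lacked 27.8% and 29% in its 2 libraries, NT_UGI 22.8% and 32.8%, and NT_UGI_MMR 26.2% and 27.9%. Thus K562 lacked more than 5 of the 6 HCT116 libraries and less than replicate 2 of NT_UGI, and over the whole genome its value was not outside the HCT116 range. With 1 K562 library, this difference has no test.

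Among these bases, those absent from K562 were set beside those shared with it. The left-out condition took no part in choosing them, but K562 did. All 6 libraries were scored on the split made by the same K562 library. No split by another HCT116 library was scored, so the test cannot show whether a difference is particular to K562. A larger part of the HCT116-only bases than of the core also lay near the cut-off of the merged files. The part of this in the difference was not tested. The left-out libraries covered 60.6% ± 2.97 (SD, n = 6) of the bases absent from K562, and 77.5% ± 3.44 (SD, n = 6) of those shared with it. The difference was -16.9 percentage points, with a range of -18.2 to -16.3, and had this sign in 6 of 6 libraries (exact sign-change permutation test, two-sided p = 0.0312, which is the smallest p that 64 sign patterns allow; p = 0.125 adjusted over the 4 planned tests, which does not pass). With the 2 libraries of a condition kept together as a block, the exact permutation p was 0.25, again the smallest possible. When bases were matched for the GC content of their 5 kb window, the difference was -12.7 points (exact p = 0.0312).

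This genome-wide picture hid large differences between chromosomes. K562 lacked more than every left-out HCT116 library on 7 chromosomes, less than every one on 3 and fell within their range on the other 12. The 7 were chromosomes 3, 8, 9, 13, 14, 17 and 20. On chromosome 9, K562 lacked 58.0% to 58.3% against 24.3% to 34.3% in the left-out libraries. The next widest differences in this direction were on chromosome 14 (41.4% to 41.7% against 22.1% to 33%), chromosome 17 (37.0% to 39.4% against 22.1% to 29.9%) and chromosome 13 (36.2% to 36.7% against 18% to 29.6%). On the other side stood chromosomes 1, 7 and 22, with 21.4% to 21.9% in K562 against 24% to 33.3% in HCT116 for chromosome 7. In number, chromosome 4 held the most regions (1922), followed by chromosome 3 (1550) and chromosome 13 (1464), and chromosome 22 the fewest (12). Regions made up 3.23% of the known bases of chromosome 13 and 2.08% of chromosome 9.

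**Figure D2:**
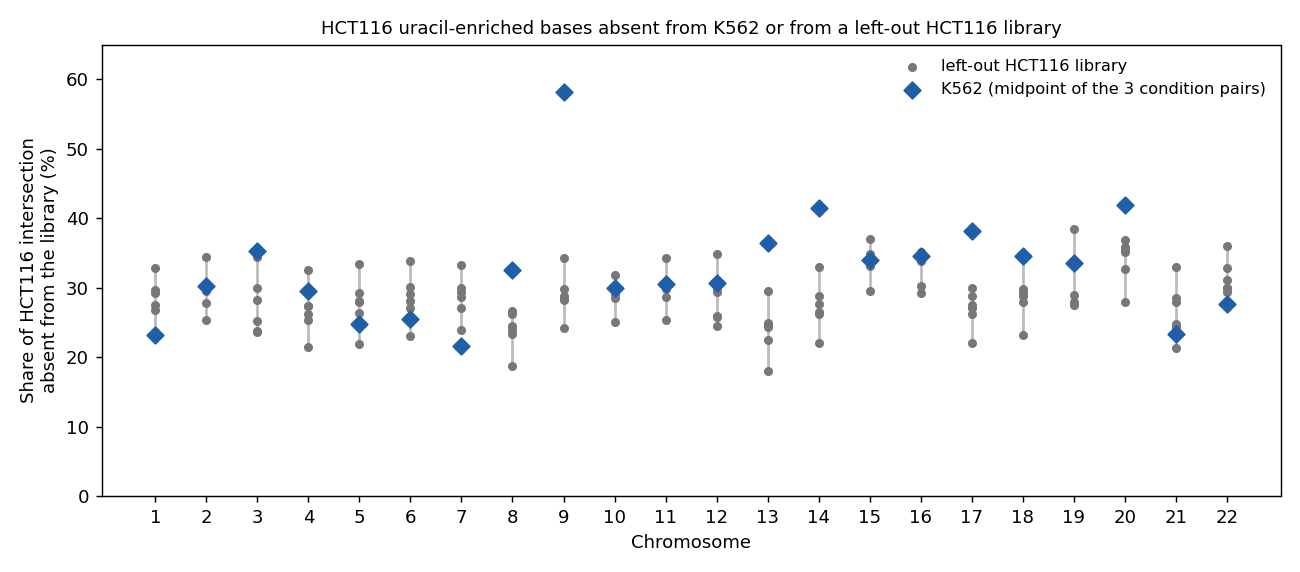
Share (%, vertical axis) of bases common to 2 non-treated HCT116 conditions that is absent from K562 (diamonds, midpoint of the 3 condition pairs) or from each of the 6 libraries of the left-out condition (grey points, joined from lowest to highest), by chromosome. On chromosome 9 K562 lies at 58.0% to 58.3%, above the highest HCT116 library at 34.3%.

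Chromosome 9 owed much of this to a pair of stretches where K562 had no region at all. These were picked after the values were seen, as the K562-free gaps with the most bases common to the 3 HCT116 conditions. The first, chr9:28553301-31622300 (3.07 Mb), held 212 HCT116-only regions and 957.1 kb of the HCT116 intersection. The 6 non-treated HCT116 libraries covered 41.5% to 46.0% of it. The second, chr9:20751601-26640800 (5.89 Mb), held 203 regions and 763.9 kb, and the HCT116 libraries covered 21.2% to 26%. By the same measure, the richest K562 gap on any other chromosome held 18 kb. In the 1.91 Mb between the 2 stretches K562 covered 3.12% of the bases.

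These stretches held 415 of the 15271 regions (2.72%), but 16 of the 20 regions of 10 kb or more and 119 of the 473 of 5 kb or more. Their regions had a median length of 3000 bp, against 1600 bp elsewhere. Of the 10 longest regions, 9 lay there and all 9 were outside protein-coding genes. In the remainder of chromosome 9, K562 lacked 40.5% to 40.7% of the bases of the left-out comparison and the HCT116 libraries 25.2% to 34.6%. Without chromosome 9, the share of the 3-way intersection absent from K562 was 25.4%, close to the 26.3% with it.

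The first stretch overlapped a single protein-coding gene, LINGO2, a leucine-rich repeat membrane protein of neurons. The second held the type I interferon genes, MTAP of the methionine salvage pathway, the cell cycle inhibitors CDKN2A and CDKN2B, the RNA-binding protein gene ELAVL2, DMRTA1, IZUMO3 and TUSC1 in full, and part of FOCAD. The bodies of MTAP, CDKN2A, CDKN2B and ELAVL2 had no base in the HCT116 intersection, whereas DMRTA1 had 4600 bp. K562 is known to lack CDKN2A; whether K562 DNA is present along these stretches was not tested. Bases on the study's own blacklist for K562 would also be without regions, and that list was not used here.

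In windows of 1 Mb the same loci came first. Among 557 windows with at least 100 kb of the HCT116 intersection, the median share absent from K562 was 24%. It was 90% or more in 8 windows, all on chromosome 9, and 50% or more in 15, of which 8 were on chromosome 9, 3 on chromosome 3, 3 on chromosome 4 and 1 on chromosome 10. In the left-out comparison, K562 reached 90% in 8 windows and none of the 6 HCT116 libraries did so in any, the highest HCT116 value of a window being 55.9%. The window chr9:30000001-31000000 had the most HCT116-only bases of all (84 regions, 39.6% of its bases). The 6 HCT116 libraries covered 46.4% to 57.8% of it, and it held no protein-coding gene. KLHL1 on chromosome 13 lay in the window of the top 10 that K562 covered best (41.7%, against 51.4% to 61.8% in HCT116).

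Away from chromosome 9, the strongest locus was FSTL5. The window chr4:161000001-162000000 had 79 regions on 25.6% of its bases, and K562 lacked 75.0% of its HCT116 intersection. Unlike the chromosome 9 stretches, K562 did have regions there, on 13.9% of the bases against 49.4% to 54.8% in HCT116. The windows on each side lacked 64.0% and 63.3%. A window at chr10:108000001-109000000, without a protein-coding gene, followed with 64.1%.

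Of all genes, FSTL5 held the most HCT116-only bases, with 68 regions and 219800 bp, 28.2% of the gene body, and the widest share among genes of 100 kb or more. WT covered 59.7% and 60.1% of FSTL5, NT_UGI 59.2% and 57.5%, NT_UGI_MMR 55.5% and 58.6%, and K562 18.1%. The 6 HCT116 values lay close together. FSTL5 was named for its HCT116-only bases, which these conditions and K562 chose, so a lower value in K562 was favoured by the choice. LINGO2 followed with 197400 bp in 70 regions (15.5% of the body). WT covered 34.4% and 33.1% of LINGO2, NT_UGI 32.1% and 28.6%, NT_UGI_MMR 29.8% and 33.5%, and K562 2.23%.

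ROBO2 and ROBO1, receptors for the Slit guidance proteins, held 157300 bp and 116500 bp. The share of ROBO2 covered in HCT116 was 33.4% ± 5.15 (SD, n = 6), against 20.7% in K562. By condition it was 29.1% and 33.7% in WT, 32.7% and 26.6% in NT_UGI, and 38.9% and 39.5% in NT_UGI_MMR. ROBO2 is on chromosome 3, which was added to the NT_UGI_MMR sub-line, and the part of this was not tested. PTPRD, a receptor tyrosine phosphatase on chromosome 9, had 133800 bp, and K562 covered 24.7% of it against 30.1% to 36.6% in HCT116. CSMD3 (126800 bp) was in the main a gene of the shared core, which made up 41.1% of its body against 10.4% for HCT116-only regions. The synaptic adhesion gene CADM2, the neuregulin receptor ERBB4, the neuronal trafficking gene NBEA and CCSER1 completed the 10, with 81400 to 103400 bp. K562 covered 41% of CCSER1, against 41.1% ± 2.61 (SD, n = 6) in HCT116, and there K562-only regions made up 4.82% of the body and HCT116-only regions 5.51%.

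By share of the body, FSTL5 and LINGO2 were followed by the cadherin gene CDH19 (14.9%), NBEA (12.5%), the cytokine gene IL7 (12.2%), the cation channel gene TRPC4 (10.6%), the ephrin receptor gene EPHA3 (10.5%), CSMD3 (10.4%), the giant cadherin gene FAT4 (10.3%) and CSNKA2IP (9.98%). The core covered more of the body than the HCT116-only regions did in all of these but FSTL5 and LINGO2. In IL7, the HCT116 libraries ranged from 32.9% to 58.7% and K562 stood at 24.9%.

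Lists of genes that mark the cell types of origin, and lists of neuronal adhesion and olfactory receptor genes, were counted. The span was the gene body with 50 kb on each side. Of 19111 protein-coding genes, 3023 (15.8%) had an HCT116-only base in this span. Of 27 erythroid and blood genes, the lineage of K562, 4 did (14.8%). Among them were the globin genes HBE1 and HBG2 and the scavenger receptor CD36, with 1.54% to 1.69% of the span. HBE1 and HBG2 have long, overlapping gene models in this annotation and held the same 3 regions with 5700 bp, so these were counted for both. The globin genes HBB, HBD and HBG1 had no HCT116-only base in the span. Of 24 genes of colonic epithelium, the tissue of HCT116, 3 did (12.5%), among them the stem cell factor ASCL2 and TSPAN8, with 1.66% and 1.25%. The blood and colonic lists each had a median of 0, like all genes. K562-only bases were near 13 of the 27 blood genes and 4 of the 24 colonic genes, against 35.4% of all genes. Of 31 adhesion genes of neurons, 30 had an HCT116-only base, with a median of 2.70% of the span against 12.8% for the core and 3.04% for K562-only regions. Many of these genes are long, such as CNTNAP2 (2304997 bp) and LRP1B (1899594 bp). A longer span has more room for a region, and length was not matched in these counts. SLITRK5 (12.3%) and SLITRK1 (11.9%), both on chromosome 13, were the only genes of these lists with 10% or more, which 36 of all genes reached. Of 415 olfactory receptor genes, 167 (40.2%) had an HCT116-only base in the span and 269 (64.8%) a K562-only base, and all 31 adhesion genes had a K562-only base. Gene activity was not measured.

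By annotation, 32.1% of HCT116-only bases were in protein-coding genes, 30.4% in introns, 1.76% in exons and 0.50% in coding sequence. The shared core had 32%, 30.1%, 1.9% and 0.52%, and all known bases 45.3%, 41.5%, 3.80% and 1.25%. Long non-coding RNA genes outside protein-coding genes held 18% of HCT116-only bases. The K562-only regions were different from both, with 44.3% in protein-coding genes, close to all known bases.

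HCT116-only regions were AT-rich, although a little less so than the shared core. Their median GC content was 32.9% (5th to 95th percentile 28.5% to 38.5%), against 32.1% in the core, 35.9% in the K562-only regions and 39.8% over all 2 kb tiles. The median of the HCT116-only regions was above that of the core on each of the 22 chromosomes, by 0.25 to 3.58 percentage points, the highest on chromosome 22 with its 12 regions. Regions cut from a wider shared interval had a median GC of 32.5%, and those with no K562 base in their interval 33.5%. CpG dinucleotides occurred 4.95 times per kb, against 4.69 in the core and 10.1 in all known bases, and TpA 93.2 times per kb, against 97.1 and 64.9. GC content moved with the choice of the regions, and its part in the choice was not tested.

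**Figure D3:**
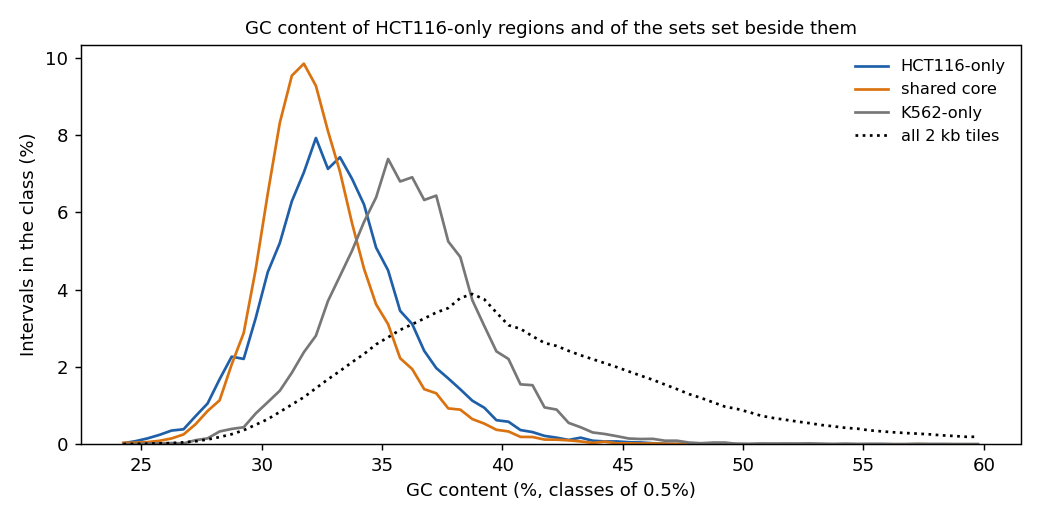
Distribution of GC content (%, horizontal axis, in classes of 0.5%) as the share of intervals in each class (%) for the HCT116-only regions, the shared core, the K562-only regions and all 2 kb tiles of chromosomes 1 to 22. The medians are 32.9%, 32.1%, 35.9% and 39.8%, so the HCT116-only curve lies just to the right of the core.

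After either drug, few of these bases were in regions. Of the HCT116-only bases, 5FdUR_UGI covered 0.764% and 3.74% in its 2 libraries, 5FdUR_UGI_MMR 1.66% and 7.96%, RTX_UGI 3.68% and 2.89%, and RTX_UGI_MMR 5.28% and 3.0%. Every one of these was below the 17.6% to 19.7% of all known bases that the same libraries covered, and the mean was 3.62% ± 2.22 (SD, n = 8). No base of 10633 regions (69.6%) was called in any drug-treated library, nor of 22025 intervals (63.4%) of the shared core. The core intervals were longer, and length was not matched in this count. The share of like stretches over the whole genome was not counted, so this count shows no trait of the HCT116-only regions. The 2 libraries of each 5FdUR condition lay further apart than those of each RTX condition.

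Whether a region was shared with K562 gave no difference that passed the test. The log2 ratio of the covered share of HCT116-only regions over that of the shared core was 0.01 ± 0.16 (SD, n = 8), positive in 4 of 8 libraries (exact sign-change permutation test, two-sided p = 0.805). The sign of the ratio changed in alternatives for length and base composition. Among intervals of at least 5 kb, HCT116-only regions were covered less in 8 of 8 libraries, with a mean of 1.66% against 2.96% and a log2 ratio of -1.06 (exact permutation p = 0.00781, the smallest possible). Of these 473 regions 133 were on chromosome 9, and without that chromosome the ratio was -0.72 with the same p. With the core weighted to the GC content of the HCT116-only regions, the ratio was -0.21, again negative in 8 of 8 libraries (exact p = 0.00781). These p-values were not adjusted. None of these alternatives was run with the libraries of a condition kept as a block, where the exact permutation p cannot fall under 0.125. K562-only regions were covered more than both in every drug-treated library, at 4.19% to 14.1%, which was not tested.

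Between the drugs, coverage of the HCT116-only regions overlapped. Relative to all known bases it was 0.196 ± 0.176 (SD, n = 4) after 5FdUR and 0.198 ± 0.0624 (SD, n = 4) after RTX. On the log2 scale the difference of 5FdUR from RTX was -0.47 ± 0.76 (SE; exact permutation test, two-sided p = 0.571, where 70 splits allow no less than 0.0286). By MMR status, the relative coverage was 0.151 ± 0.0783 (SD, n = 4) in deficient and 0.243 ± 0.152 (SD, n = 4) in proficient cells, a log2 difference of 0.69 ± 0.73 (SE; exact permutation p = 0.4). Neither comparison passed, and the spread leaves room for differences of either sign.

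The position of the few drug-treated regions around these sites was compared after the pattern had been seen, so the test restates what prompted it and its p is not adjusted. At the centres of the HCT116-only regions, 5FdUR_UGI covered 0.917% and 3.68%, against 2.10% and 6.15% at 20 kb to each side. 5FdUR_UGI_MMR covered 1.68% and 8.15% of the centres, against 5.83% and 11.8%. All 4 libraries were lower at the centre. RTX_UGI covered 3.98% and 3.11% of the centres, against 2.69% and 2.49%, and RTX_UGI_MMR 5.78% and 3.26%, against 4.51% and 2.96%. All 4 were higher at the centre. The log2 ratio of centre over flank was -1.07 ± 0.56 (SD, n = 4) after 5FdUR and 0.34 ± 0.17 (SD, n = 4) after RTX, with no overlap. The difference was -1.41 ± 0.29 (SE; exact permutation p = 0.0286, the smallest possible), or p = 0.0556 when labels were exchanged only within an MMR state or a replicate number, again the smallest possible. The shared core showed it too, with a difference of -1.75 ± 0.36 (SE, exact permutation p = 0.0286). The GC content was 33.1% at the centres and 36.0% at the flanks, and its part in this was not tested.

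The drugs were also compared in tiles of 1 kb, by plain coverage. Every RTX library covered more of the tile than every 5FdUR library in 3.5% of all 2756368 tiles, and in 326 of the 32169 tiles with at least 50% of their bases in HCT116-only regions (1.01%). The reverse was true of 1.82% of all tiles and of 12 HCT116-only tiles (0.0373%). Both shares were under the background, and most of these tiles were not called in any drug-treated library. The shared core had 1.0% and 0.0188%.

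Along the chromosome 9 stretches the drugs gave different values. In the 5.89 Mb stretch, 5FdUR_UGI covered 5.08% and 4.19%, 5FdUR_UGI_MMR 2.35% and 4.68%, RTX_UGI 17.4% and 17.9%, and RTX_UGI_MMR 19.5% and 16.2%. The groups did not overlap, with a difference of 13.7 percentage points (exact permutation p = 0.0286, or 0.0571 adjusted over the 2 stretches, which were chosen after the values were seen). Of its HCT116-only bases, the RTX libraries covered 3.13% to 5.63% and the 5FdUR libraries 0.0293% to 1.16%. In the 3.07 Mb stretch the means were 2.84% after 5FdUR and 0.0587% after RTX, with overlapping libraries (exact permutation p = 0.0857). Such separation of the drugs was common in 1 Mb windows, with every RTX library above every 5FdUR library in 18.1% of 2765 windows and the reverse in 22.6%. In the 5.89 Mb stretch it held in 2 of the 5 whole windows.

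Regions that every drug-treated library called were rare. Some base was covered in all 8 libraries in 7 HCT116-only regions (0.0458%), against 33 intervals of the core (0.0950%). The core intervals were longer, with a median of 2500 bp against 1600 bp. The share over the whole genome was not counted, so these counts show no trait of the HCT116-only regions. Only chr4:152590801-152592600, an intergenic region of 1800 bp with 43.8% GC, had at least 50% of its bases in each of the 8, with a mean of 95.8%. Others were chr2:201545701-201547500 in an intron of C2CD6 (93.1%), the intergenic chr2:8649101-8651800 (88.0%) and chr4:169788701-169789800 (80.7%), the intergenic chr3:160748901-160751000 (72.6%) and an intron of the metal transporter gene SLC39A8 (70%).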

How the data were processed

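U-DNA-Seq of HCT116 and K562 was analysed from the region files, of which 15 hold 1 enriched library each and 7 are merged files of HCT116 conditions. Per the labels and methods, the authors aligned reads to GRCh38 with BWA 0.7.17-r1194, processed them with SAMtools, Picard and deepTools 3.2.1, removed blacklisted bases per cell line, and kept stretches over a cut-off of the smoothed enriched-over-input ratio. The deposited values are log2 ratios, 1 per region; they were used as given. The lowest log2 value in a file was 0.33 for K562, 0.25 to 0.33 for the single non-treated libraries and 0.13 to 0.27 for the drug-treated ones, so cut-offs differ between files. The files hold no read counts, so the depth is unknown, and no interval from counts is given.

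All region ends on these chromosomes fall on multiples of 100 bp. Coverage was computed in bins of 100 bp over chromosomes 1 to 22 as the share of bases inside regions, with Python 3.11.15 and NumPy 2.4.6, and figures were drawn with matplotlib 3.10.9. Genes were those of GENCODE release 44 (19111 protein-coding genes). Groups came from the labels. The study's methods call the 2 libraries of a condition biological replicates; the labels give only their numbers. Exact permutation tests over libraries compared the HCT116-only regions with the shared core in the 8 drug-treated libraries, 5FdUR with RTX, the MMR states, and bases absent from or shared with K562 in left-out libraries. Their p-values were adjusted by Benjamini-Hochberg over these 4. Set operations and tests were tested on simulated data. The regions, gene lists and tests were chosen with earlier results of these data known. Named items were, by rule, the 10 longest regions, the 10 windows of 1 Mb richest in HCT116-only bases or most absent from K562, the 10 genes with the most bases or, from 100 kb in length, the largest share, the regions covered in all 8 drug-treated libraries, and list genes with at least 10%. A few items that this rule names are not reported here. Input and mock samples had no region file used here. Alternatives covered lengths, widened K562 regions, both replicates, GC content, merged files, left-out libraries, chromosomes and replicate blocks.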

Additional observations from a re-analysis of the deposited data

How the results depend on the processing

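The number of HCT116-only regions depended on the rule. It was 29034 with a minimum length of 500 bp, 5476 with 2 kb, 473 with 5 kb, 8224 with K562 regions widened by 1 kb, 3624 with bases called in both replicates of all 3 conditions, and 23123 with WT left out of the rule. The share of the HCT116 intersection absent from K562 (26.3%) was 19.5% in intervals of at least 5 kb, 13.7% with K562 regions widened by 1 kb, 16.8% with bases called in both replicates, and 31.0%, 30.8% and 31.1% with WT, NT_UGI and NT_UGI_MMR left out. The cause was not tested, although a stricter rule keeps fewer bases by its construction.

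The log2 ratio of coverage of HCT116-only regions over the core in drug-treated libraries turned negative at 5 kb or more (-1.06), at 5 kb or more without chromosome 9 (-0.72, chosen after seeing the data) and with GC content matched (-0.21). Without each library in turn it ran from -0.023 to 0.042. The log2 difference of 5FdUR from RTX (-0.47) ran from -1.02 to 0.10 without each library, the lowest without replicate 2 of 5FdUR_UGI_MMR and the highest without replicate 1 of 5FdUR_UGI; it stayed over p = 0.05 in each exact permutation test. With regions of a log2 value of at least 0.27 in all libraries it was -1.42 (exact permutation p = 0.0857). The MMR difference (0.69) was short of the threshold and positive in all 12 alternatives, but ran from 0.16 without replicate 1 of 5FdUR_UGI to 1.08 without replicate 1 of 5FdUR_UGI_MMR.

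Replicate numbers did not pair the samples in the same way across conditions. The deviations of equally numbered libraries over 1 Mb windows correlated between -0.58 and 0.48 over the 21 pairs of conditions, and over 0.1 in 5. Within a drug they went together, at 0.37 between the 5FdUR conditions and 0.48 between the RTX conditions. Between a 5FdUR and an RTX condition they were opposite, at -0.58 to -0.38. Libraries of a drug with the same number thus shared part of their deviation. With the replicate block, the difference in left-out libraries was -16.9 points (exact permutation p = 0.25), and the difference of centre over flank -1.41 (exact permutation p = 0.0556), also within MMR states (-1.41). Under the block the other comparisons stayed short of the threshold. The left-out difference ran from -17.0 to -16.6 points without each library, each at an exact permutation p = 0.0625, the smallest that 5 libraries allow. All alternatives of the centre and flank comparison were chosen after seeing the data, as was leaving out chromosome 9. K562 had 1 library, and the depth of each file is unknown.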
